A study of Mus musculus with 9 samples.

Results

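The F1 library of a Smc1 HiChIP experiment was set against the 2 Smc1 libraries of BL6 mice, all 3 tabulated on the BL6 genome, so that differences between the strains' libraries did not come with a change of mapping genome. HiChIP joins proximity ligation of chromatin to immunoprecipitation, and each read pair reports 2 DNA segments held near the chosen protein. These were 3 of the 9 libraries of the series and 3 of its 10 tables. The F1 library came from mice of the cross (NOD/ShiLtJ X C57BL/6) F1, whose C57BL/6 parent is given without a substrain, and it had no replicate. The BL6 libraries came from C57BL/6J mice, and the labels call them technical replicates of 1 biological replicate. In every group the cells were live thymocytes sorted from the thymus for CD4 and CD8, the antibody was Bethyl A300-055A against Smc1, chromatin was cut with MboI, and reads were 38 bases at either end. The age and sex of the mice were not given in the sources used here. With 1 F1 library there is no replicate check on that side, so every difference below is a description of these libraries, without a test.

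Smc1 is a subunit of cohesin, the ring complex that draws chromatin into loops until it meets bound CTCF, and its contacts mark loop anchors, promoters and enhancers. CD4+ CD8+ double-positive thymocytes are the stage at which the rearranged T cell receptor is tested for positive and negative selection. An F1 animal carries 1 NOD and 1 BL6 copy of each autosome, and NOD mice develop autoimmune diabetes spontaneously.

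The tables list an interaction only from 2 read pairs upward and up to a q-value of 0.05, so a missing interaction was under that limit and was not measured as 0. After restriction to chromosomes 1 to 19 and to anchor midpoints at least 10 kb apart, the F1 library held 765174 read pairs in 304788 interactions. BL6 libraries 1 and 2 held 1899656 read pairs in 701626 interactions and 2620621 read pairs in 965894 interactions, which is 2.48 and 3.42 times the depth of F1. Interactions resting on 2 read pairs made up 68.1% of those of F1, against 61.6% and 59.6% in BL6 libraries 1 and 2. The median contact distance was 572 kb in F1, against 583 and 541 kb in BL6. The share of read pairs in any distance band differed by a few percentage points at most, for example 27.9% between 500 and 1000 kb in F1 against 25.6% and 25.7% in BL6. The share of a chromosome in F1 was between 0.884 and 1.09 times that in BL6 library 1 and between 0.917 and 1.06 times that in BL6 library 2, and the BL6 libraries themselves differed by 0.939 to 1.16 times.

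Contacts at the genes that define double-positive cells were listed in F1, with 1 exception. Cd8b1 and Cd8a, which encode the CD8 chains, had 141 and 103 CPM in F1, against 73.2 and 47.4 CPM in BL6 library 1 and 64.9 and 80.5 CPM in BL6 library 2. CPM is read pairs per 1000000 used read pairs of the library, and a gene was given the sum of all interactions whose anchor reached into the 5 kb around its start or its end. Rag1, a recombinase gene of receptor rearrangement, had 48.4 CPM in F1 and 29.5 and 16.0 CPM in BL6, and Cd4 had 23.5 CPM in F1 and 21.6 and 8.4 CPM in BL6. Cd3e, a chain of the receptor complex, had 9.15 CPM in F1 against 31.6 and 21.0 CPM in BL6, and Rag2, the partner of Rag1, had 6.53 CPM against 15.8 and 20.2 CPM. Dntt, which adds bases at receptor joints, had 13.1 CPM in F1 against 17.9 and 11.4 CPM in BL6. Ptcra, which encodes the pre-T cell receptor alpha chain, had no listed interaction in F1 and 26.3 and 9.5 CPM in BL6. None of the 10 markers met the rule for a call given below. Marker genes of other cells summed to similar levels in the 3 libraries. The natural killer list summed to 375 CPM in F1 against 334 and 311 CPM in BL6, the B cell list to 433 against 481 and 409 CPM, the myeloid and dendritic list to 650 against 750 and 534 CPM, and the mature T cell list to 453 against 439 and 357 CPM. The erythroid list summed to 244 CPM in F1 against 305 and 238 CPM in BL6, and the thymic epithelium list to 357 against 371 and 378 CPM. Contact levels are not expression, so these sums describe loci and not the number of cells of a type.

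Genes were described where the mean of the F1 CPM and the BL6 mean CPM was at least 20, which left 9806 of 20665 protein-coding genes. A gene was called when F1 lay at least 2-fold from both BL6 libraries in the same direction, after 5 CPM had been added to every value. F1 was higher at 335 genes (3.42% of those described) and lower at 315 genes (3.21%). The 335 higher genes lay at 281 loci more than 100 kb apart, of which 244 held 1 called gene, and the 315 lower genes lay at 271 loci, of which 236 held 1. The share of described genes called higher ran from 1.60% on chromosome 18 to 5.28% on chromosome 14. The share called lower was smallest on chromosome 3, at 1.57%, and largest on chromosome 17, where 23 of 460 described genes were lower.

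F1 was at least 2-fold higher than BL6 library 1 at 847 genes and lower at 698 (15.8%), and higher than BL6 library 2 at 1004 genes and lower at 476 (15.1%). The 2 BL6 libraries give the only measure of spread, and it is technical: library 1 was at least 2-fold higher than library 2 at 541 genes and at least 2-fold lower at 248, together 8.05% of those described. The standard deviation over genes of the log2 ratio was 0.74 for F1 over BL6 library 1 and 0.71 for F1 over BL6 library 2, against 0.58 for BL6 library 1 over library 2. Pearson's r of log2 levels across genes, which are not independent replicates, was 0.27 for F1 with either BL6 library and 0.52 between the BL6 libraries. F1 is also the shallowest library, and the part of depth in the wider scatter was not tested. The median log2 ratio of F1 over the BL6 mean was 0.14 over all described genes, and the changes of single genes below are to be read against it.

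The calls are given by contact level, which is the mean of the F1 CPM and the BL6 mean CPM. A gene high in F1 alone is moved up a band by that value, and a gene low in F1 is moved down. Unevenness of calls over the bands is thus partly fixed by the rule, and nothing is read from it. Among 54 genes with a mean of at least 100 CPM, 6 were higher in F1 and 0 were lower. In that band BL6 library 1 was at least 2-fold above BL6 library 2 at 8 genes and at least 2-fold below at 0 (14.8%). In the bands below, taken downward, the BL6 libraries were 2-fold apart at 6.28%, 7.71% and 8.87% of genes. Between 50 and 100 CPM 63 of 1370 genes were higher and 9 lower, and between 30 and 50 CPM 135 of 4190 were higher and 81 lower. In the lowest band, from 20 to 30 CPM, 131 of 4192 genes were higher and 225 lower. The excess of lower calls stood in this lowest band, and the part of sparse F1 counts in it was not tested. The median called gene rested on 40 F1 read pairs where F1 was higher and on 9 where F1 was lower, an order that the call rule favours.

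**Figure D1:**
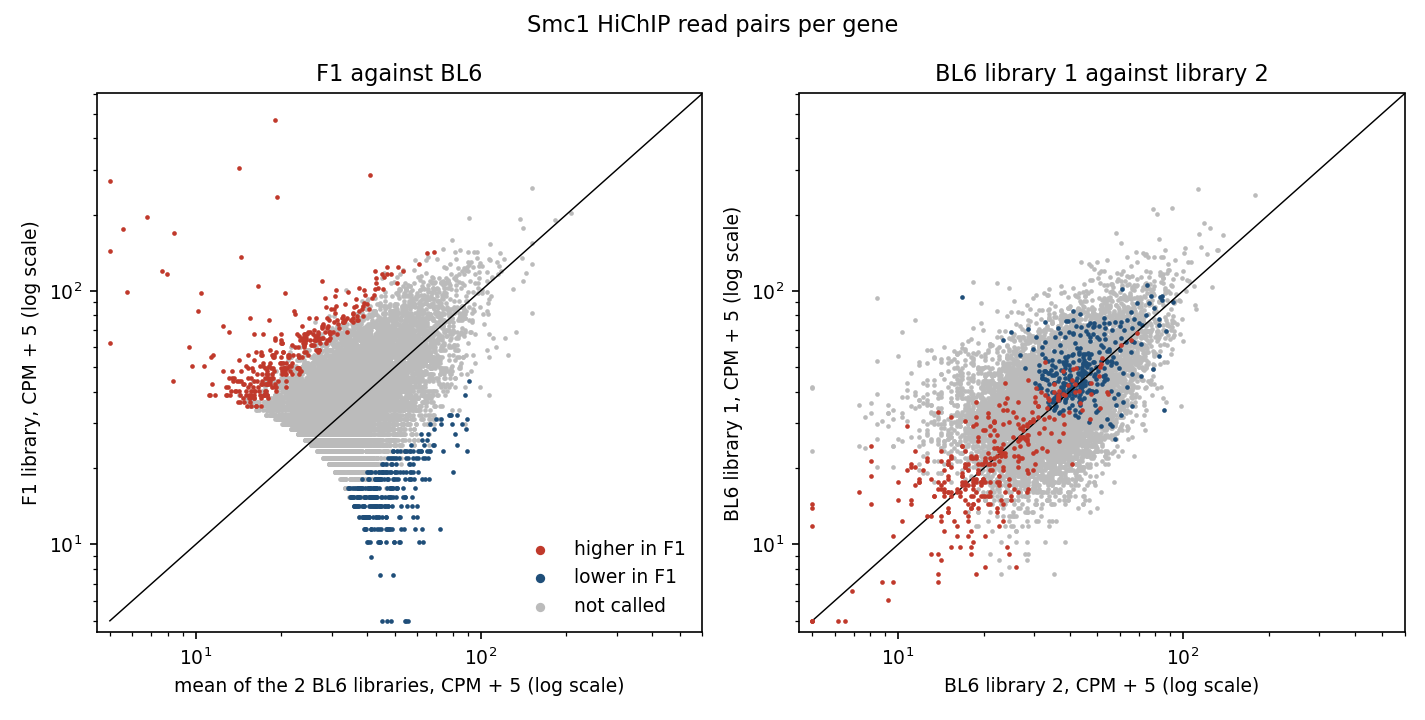
Contact levels of the 9806 described genes as CPM + 5 on log axes, for F1 against the mean of the BL6 libraries (left) and for BL6 library 1 against BL6 library 2 (right); each point is a gene, coloured red where F1 was higher (335 genes), blue where F1 was lower (315 genes) and grey otherwise. Red points reach an F1 level of 467 CPM, while every blue point lies under 50 CPM in F1.

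Named genes higher in F1 included members of the Ly49 family, whose genes vary in number and sequence between mouse strains. Klra9, which encodes a lectin receptor of the kind that bind MHC class I on natural killer cells, had 203 read pairs in F1, or 265 CPM with a 95% Poisson interval of 230 to 304, and no listed interaction in either BL6 library. Klra1 had 191 CPM in F1, against 1.58 and 1.91 CPM in BL6, and Klra4 had 111 CPM in F1, against 2.11 and 3.82 CPM in BL6. Klra7 had 115 CPM in F1 against 1.05 and 4.20 CPM in BL6, and Klra8 had 94.1 CPM in F1, no listed interaction in BL6 library 1 and 1.53 CPM in BL6 library 2. F1 was above both BL6 libraries at these 5 genes, as the rule for a call requires. Klra17, at the proximal end of the cluster, had 19.6 CPM in F1 against 22.6 and 26.3 CPM in BL6 and was not called. Ly49 genes are closely similar copies, and reads of 38 bases may not place a pair at a single member with certainty.

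Anchors were also set against start sites, and of the called Ly49 genes Klra9 and Klra7 had F1 anchors there, while the promoter windows of Klra1, Klra4 and Klra8 had none in any of the 3 libraries. At the 300-base promoter window of Klra9 (RefSeq, GRCm38.p6, chr6:130193063-130193362, minus strand), interactions whose anchor overlapped the window held 31 read pairs in F1, and no interaction was listed in either BL6 library. At the first of 2 Klra7 windows (chr6:130231638-130231937, minus strand) the F1 library had 26 read pairs, again with no listed interaction in BL6. On chromosome 4 a window of Zfp982 (chr4:147442864-147443163, plus strand) held 23 F1 read pairs and that of Zfp985 (chr4:147553027-147553326, plus strand) 7, with no listed interaction in BL6 at either. A second Klra7 window likewise held 26 read pairs in F1 and none listed in BL6. A second Zfp982 window held 7 read pairs in F1, none listed in BL6 library 1 and 4 in BL6 library 2. For each of the Ly49 and zinc finger genes with F1 anchors at a start site, 1 window with the most F1 read pairs is shown, and the capitals mark the longest run of bases found also in the promoter window of another gene.
Klra9: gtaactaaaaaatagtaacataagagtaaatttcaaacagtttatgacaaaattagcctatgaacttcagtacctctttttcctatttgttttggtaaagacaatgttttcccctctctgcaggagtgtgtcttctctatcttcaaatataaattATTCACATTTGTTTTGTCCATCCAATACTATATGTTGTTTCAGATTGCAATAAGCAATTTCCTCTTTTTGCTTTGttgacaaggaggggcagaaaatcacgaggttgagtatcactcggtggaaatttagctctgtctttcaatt
Klra7: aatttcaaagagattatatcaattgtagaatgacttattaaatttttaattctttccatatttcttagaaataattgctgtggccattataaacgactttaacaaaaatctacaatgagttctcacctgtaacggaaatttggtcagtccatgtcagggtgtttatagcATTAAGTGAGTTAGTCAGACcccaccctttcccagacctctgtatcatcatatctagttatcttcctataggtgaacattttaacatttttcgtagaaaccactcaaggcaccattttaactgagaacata
Zfp982: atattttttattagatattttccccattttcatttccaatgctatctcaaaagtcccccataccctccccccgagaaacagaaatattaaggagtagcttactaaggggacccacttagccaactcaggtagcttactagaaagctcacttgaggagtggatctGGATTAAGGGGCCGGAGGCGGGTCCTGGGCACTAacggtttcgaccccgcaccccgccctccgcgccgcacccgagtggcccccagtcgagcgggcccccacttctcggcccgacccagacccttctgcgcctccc
Zfp985: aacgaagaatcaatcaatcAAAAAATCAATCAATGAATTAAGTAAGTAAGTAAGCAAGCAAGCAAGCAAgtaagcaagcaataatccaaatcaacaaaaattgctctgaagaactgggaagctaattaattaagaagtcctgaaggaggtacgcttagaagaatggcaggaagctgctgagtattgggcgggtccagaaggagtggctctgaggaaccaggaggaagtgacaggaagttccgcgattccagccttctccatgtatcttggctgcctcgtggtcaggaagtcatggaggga
The capitals of Klra9 are 75 bases shared with Klra3, and those of Zfp985 are 50 bases, mostly a short repeat, shared with Zfp988. Both runs are longer than a read of 38 bases. Those of Klra7 are 20 bases shared with Klra10, and those of Zfp982 are 34 bases shared with the opposite strand of the 1700052K11Rik window, both shorter than a read. Of the stretches of 38 bases in the window, 14.4% occur elsewhere among the 31396 promoter windows of chromosomes 1 to 19 for Klra9, 15.6% for Zfp985 and 100% for the window of Zfp970, against 0% for the Klra7 and Zfp982 windows shown. Over all genes called higher only 267 of 335 matched a promoter window, under the 80% needed, so a comparison of promoter sequence between called and other genes is void. Among the 25 named or listed genes called higher, 19 had a window in the RefSeq table, and F1 anchors overlapped 8 of their 24 windows, against 2 for BL6 library 1 and 1 for BL6 library 2. These genes were chosen because F1 was higher there, so nothing is read from the counts of windows.

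Zinc finger genes on chromosomes 4 and 2 were also among the named genes higher in F1. Zfp988 had 301 CPM in F1 (95% Poisson interval 263 to 342), against 8.42 and 9.92 CPM in BL6. Zfp985 had 170 CPM in F1, no listed interaction in BL6 library 1 and 1.14 CPM in BL6 library 2, and Zfp982 had 230 CPM in F1 against 12.6 and 16.0 CPM in BL6. Zfp990 on chromosome 4 and Zfp970 on chromosome 2 had 139 and 57.5 CPM in F1 and no listed interaction in either BL6 library. Zfp990, Zfp970 and Klra9 were the only described genes with no listed interaction in either BL6 library. Such a gene could be described only through a high F1 level, so nothing is read from their number. The gene with the highest level in F1, Gm42346 in the distal part of chromosome 4, had 467 CPM there, against 15.8 and 12.2 CPM in BL6.

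Among the other named genes higher in F1, Ifi202b, an interferon-inducible gene of the HIN family on chromosome 1, had 92.8 CPM in F1 against 2.11 and 8.78 CPM in BL6. Aadacl2fm2 of an arylacetamide deacetylase-like cluster on chromosome 3 had 99.3 CPM in F1 against 13.2 and 9.92 CPM in BL6, and Mrgpra3, an itch receptor gene of sensory neurons, had 73.2 CPM against 11.1 and 9.92 CPM. Ddx28, which encodes a mitochondrial RNA helicase, had 68.0 CPM in F1 against 10.0 and 4.96 CPM in BL6. Tmem267 had 282 CPM in F1, against 37.4 and 34.3 CPM in BL6. The Tmem267 signal lay at the gene end near Ccl28: with windows around RefSeq start sites, a setting added after the data were seen, its log2 ratio was -0.44, and with midpoints at least 20 kb apart it was no longer called.

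**Figure D2:**
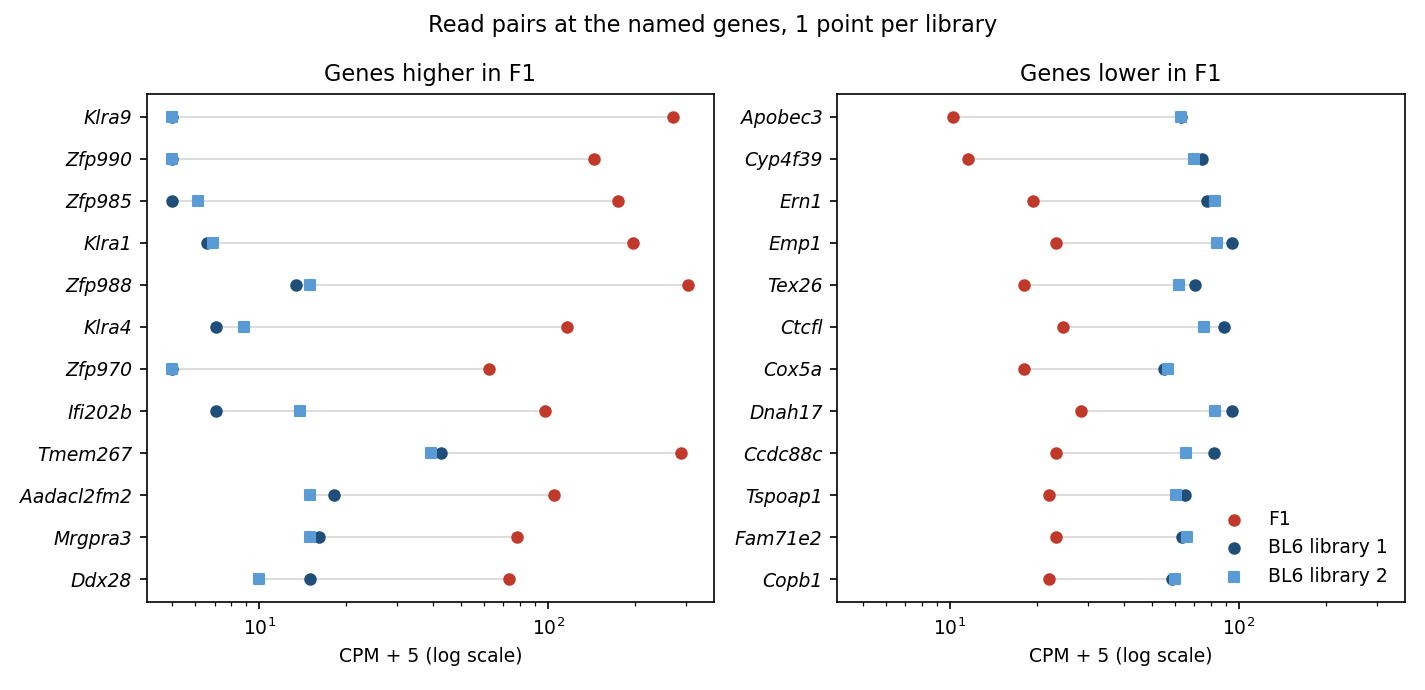
Contact levels as CPM + 5 on a log axis at the 12 named genes higher in F1 (left) and the 12 named genes lower in F1 (right), with F1 in red and BL6 libraries 1 and 2 in dark and light blue, 1 point per library. The genes were chosen by the gap between F1 and the nearer BL6 library, so the gap is the rule and not a result; Klra9 stands at 265 CPM in F1 with no listed interaction in BL6, and Apobec3 at 5.23 CPM in F1 against 57.9 and 58.0 CPM.

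Among genes lower in F1, Apobec3, a cytidine deaminase that restricts retroviruses, had 4 read pairs in F1, or 5.23 CPM with a 95% Poisson interval of 1.42 to 13.4, against 57.9 and 58.0 CPM in BL6. Ern1, which encodes the endoplasmic reticulum stress sensor IRE1 alpha, had 14.4 CPM in F1 against 72.6 and 77.5 CPM in BL6, and Emp1, an epithelial membrane protein gene, had 18.3 CPM against 90.0 and 79.4 CPM. Ctcfl, the testis paralogue of CTCF, had 19.6 CPM in F1 against 84.2 and 71.0 CPM in BL6. Cox5a, a subunit of cytochrome c oxidase, had 13.1 CPM in F1 against 50.0 and 51.9 CPM in BL6, and Copb1, a coatomer subunit, had 17.0 CPM against 53.7 and 55.3 CPM. On the NOD genome the same F1 library had 22 read pairs, or 27.8 CPM, at Apobec3. It had 32.8 CPM there at Ern1, 25.3 at Ctcfl, 17.7 at Copb1, 12.6 at Cox5a and 8.84 at Emp1. The part of the mapping genome in these levels was not tested. The other 6 named genes, Cyp4f39, Tex26, Dnah17, Ccdc88c, Tspoap1 and Fam71e2, lay between 6.53 and 23.5 CPM in F1 and between 55.7 and 89.5 CPM in the BL6 libraries. With gene body windows 7 of the 12 were no longer called, namely Cyp4f39, Ern1, Tex26, Dnah17, Ccdc88c, Tspoap1 and Copb1. The log2 ratio over gene bodies was 0.05 at Dnah17 and -0.22 at Ern1. With start-site windows only Emp1 and Tex26 of the 12 were called, and Ern1 had a log2 ratio of 0.33.

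Among described genes, 6 had no listed interaction in F1, and such a gene could be described only through a high BL6 level. These were Tyk2, a Janus kinase of interferon and interleukin 12 signalling, with 81 and 148 read pairs in BL6 libraries 1 and 2, and Stim2, a calcium sensor of store-operated entry, with 84 and 112. Zrsr1 had 100 and 120 read pairs in BL6, Srcap, a chromatin remodeller, 88 and 89, 1700067K01Rik 121 and 52, and Rln3 170 and 31. All but Tyk2 were chosen after their values were seen, and nothing is read from the number of such genes.

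In the gene lists the strain-polymorphic families, which hold Ly49, interferon-inducible, Schlafen and related clusters, had 64 matched members. Of these 19 were described, and 9 of the 19 were higher and 0 lower, beside 3.42% and 3.21% of all described genes. Besides the 5 Klra genes, Ifi202b and Mrgpra3, the higher members were Slfn4, with 43.1 CPM in F1 against 17.9 and 18.7 CPM in BL6, and H60b, a ligand of the activating receptor NKG2D, with 34.0 CPM against 10.5 and 9.54 CPM. Slfn3, Ly6a and Ly6e had log2 ratios of 1.17, 1.21 and 0.95 without a call, since 1 BL6 library lay closer to F1. A member described only because F1 was high had to differ, so nothing is read from these counts. The list had been chosen with earlier results of these data known.

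The counts of the next lists stand beside the same 3.42% higher and 3.21% lower of all described genes. In these lists too, a member described only through a high F1 or a high BL6 level had to differ. Nothing is read from their counts. Of T cell receptor signalling genes 28 were described and 0 called, with a median log2 ratio of 0.11, and of double-positive stage genes 23 were described and 0 called, with a median of 0.24. Among 36 thymocyte transcription factors only Id2, an inhibitor of E proteins, was called, with 39.2 CPM in F1 against 85.3 and 87.4 CPM in BL6. Its log2 ratio turned to 1.17 when the minimum of read pairs was raised in BL6 in proportion to depth. Bcl11b, a factor of T cell commitment, was among the 10 genes with the highest F1 level and had 199 CPM there, against 233 and 174 CPM in BL6. Selection and apoptosis genes had 0 calls among 16, with a median of 0.02.

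Type 1 diabetes and Idd candidate genes, which lie in regions linked to the disease in NOD mice or in people, had a median log2 ratio of 0.20 over 33 described members, and Tyk2 was the only one called. Among 28 cytokine and receptor genes 3 were higher (10.7%, beside 3.42%) and 1 lower (3.57%, beside 3.21%). Ifnar1, a chain of the type I interferon receptor, had 105 CPM in F1 against 31.6 and 13.7 CPM in BL6. Il6ra had 62.7 CPM in F1 against 24.2 and 5.72 CPM in BL6, and Tgfb1 had 30.1 CPM against 12.1 and 11.8 CPM. Il12rb1, a receptor chain for interleukins 12 and 23, was lower, with 11.8 CPM in F1 against 51.1 and 35.9 CPM in BL6.

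Of the cohesin and CTCF genes 11 were described, of which 2 were lower (18.2%, beside 3.21%) and 0 higher. Pds5a, a regulator of cohesin release, had 6.53 CPM in F1 against 44.2 and 35.1 CPM in BL6, and Ctcfl is given above. The MHC region genes had 3 higher members among 12 described and 0 lower, beside 3.42% and 3.21% of all described genes, with a median log2 ratio of 0.01. The 3 were described only through F1, with BL6 means of 6.49 (H2-Q6), 10.6 (H2-DMb1) and 14.9 CPM (C4b). H2-Q6, a class Ib gene, had 51.0 CPM in F1 against 4.21 and 8.78 CPM in BL6, and its promoter window shares 26.6% of its stretches of 38 bases with other windows. H2-DMb1, of the class II peptide-loading complex, had 34.0 CPM in F1 against 13.2 and 8.01 CPM in BL6, and complement gene C4b had 44.4 CPM against 16.8 and 13.0 CPM. Among the marker lists of other cells, Flt3 was lower in the myeloid and dendritic list, with 18.3 CPM in F1 against 69.5 and 43.9 CPM in BL6. The B cell, natural killer, erythroid and thymic epithelium lists had 0 calls.

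**Figure D3:**
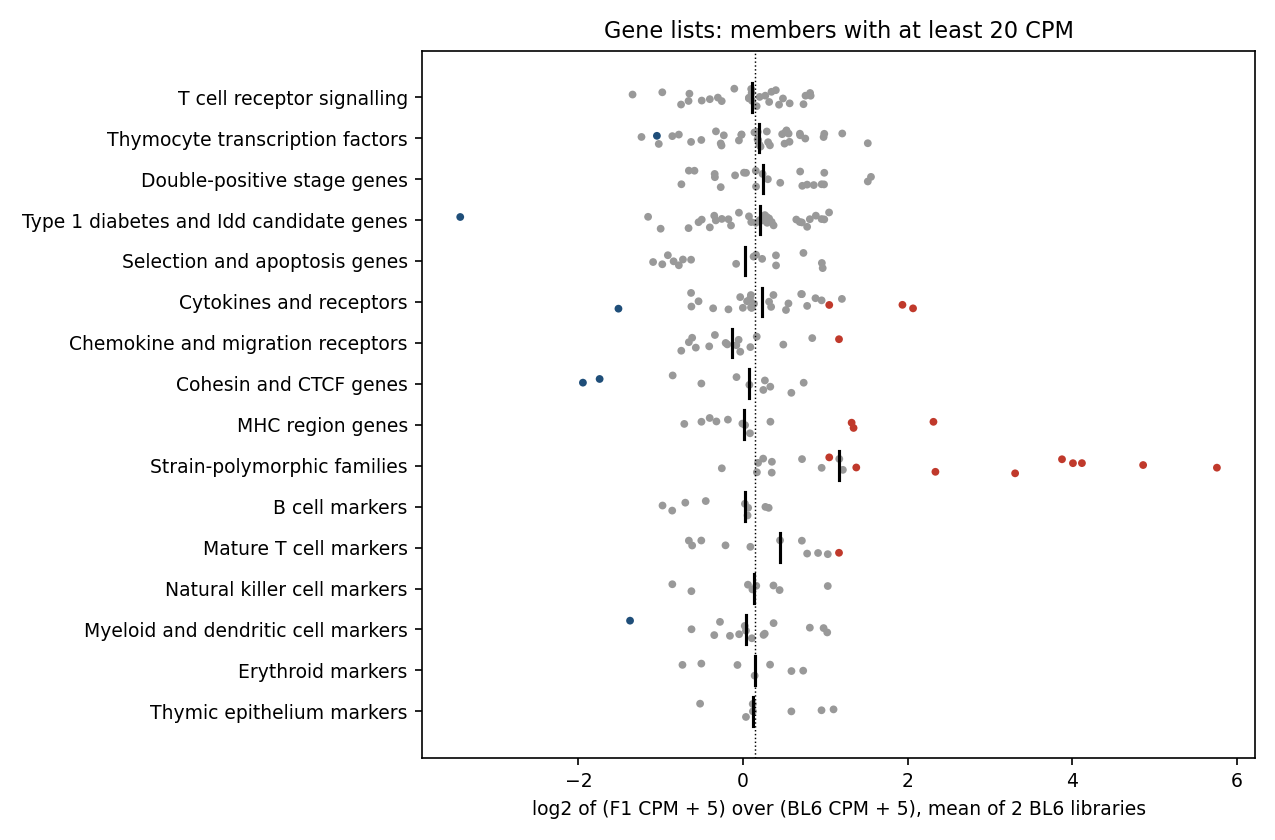
Log2 of (F1 CPM + 5) over (BL6 CPM + 5), taken against the mean of the BL6 libraries, for the members of 16 gene lists with a mean of at least 20 CPM; points are genes, red where higher in F1, blue where lower and grey where not called, black bars are list medians and the dotted line is the median of all described genes, 0.14. Members described only through a high F1 level had to differ, so the medians of lists that are low in BL6, such as the strain-polymorphic families, are not to be read; the blue point at the far left is Tyk2.

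Along the genome, 39899 bins of 25 kb were described by the same rule. F1 was higher in 1101 bins (2.76%) and lower in 1074 (2.69%). Called bins within 250 kb were joined into groups, and most stood alone, with 626 of the higher and 543 of the lower bins in no group. Groups of at least 5 bins numbered 10 in either direction, and they held 77 of the higher and 65 of the lower bins. The largest group held 18 bins where F1 was higher and 11 where it was lower.

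Among the groups with F1 higher, 4 of the 5 largest held Ly49 or zinc finger genes. The zinc finger cluster of chromosome 4 from 146900001 to 147625000, with Zfp988, Zfp982 and Zfp985, had 2087 CPM in F1 against 82.6 and 102 CPM in BL6. The Ly49 cluster of chromosome 6 from 129725001 to 130375000 had 1617 CPM in F1 against 118 and 142 CPM in BL6. The group at 145400001 to 145700000 on chromosome 4, with Gm42346 and Zfp990, had 1481 CPM in F1 against 91.6 and 63.0 CPM, and that at 177050001 to 177550000 on chromosome 2, with Zfp970, had 978 CPM against 11.1 and 0.763 CPM. These levels add up the bins of the group, so that a contact between 2 of its bins counts in each. Contacts with both anchors inside the Ly49 group held 486 read pairs in F1, against 18 and 42 in the deeper BL6 libraries, and inside the chromosome 2 group they held 302 read pairs in F1 with none listed in BL6.

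Levels at 3 of these loci are given for other libraries of the series. The NOD and BL6 libraries named here differ in strain, mapping genome and the antibody given, so they are not compared with each other. In the Smc1 tables of NOD libraries 1 and 2, which the authors made on the NOD genome and shifted to BL6 coordinates, the chromosome 4 zinc finger cluster had 782 and 1615 CPM, the Ly49 cluster 776 and 1674 CPM and the chromosome 2 group 274 and 550 CPM. In the BL6 libraries given as H3K27ac in the antibody field, whose titles name Smc1, the chromosome 4 cluster had 186 and 42.4 CPM, the Ly49 cluster 45.4 and 46.5 CPM and the chromosome 2 group 4.54 and 1.66 CPM. The same F1 library on the NOD genome, shifted, had 2756, 1608 and 1057 CPM at the 3 loci in that order. No test was made of these values.

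The other 6 groups with F1 higher are given with their NOD levels. The Aadacl2 cluster of chromosome 3 from 59400001 to 60175000 had 970 CPM in F1 against 576 and 446 CPM in BL6, with 480 and 564 CPM in the NOD libraries. The region of Malrd1 and Plxdc2 on chromosome 2 had 817 CPM in F1 against 642 and 597 CPM in BL6, with 578 and 691 CPM in NOD. The immunoglobulin heavy chain variable segments on chromosome 12 from 113550001 to 113825000 had 376 CPM in F1 against 117 and 104 CPM in BL6, with 120 and 83.5 CPM in NOD. The group from Tnks2 to Cpeb3 on chromosome 19 had 403 CPM in F1 against 180 and 183 CPM in BL6, with 224 and 141 CPM in NOD. The group of Epc1 on chromosome 18 had 425 CPM in F1 against 202 and 172 CPM in BL6, with 198 and 114 CPM in NOD. A group on chromosome 8 beside Fcho1, from 71725001 to 71875000, had 463 CPM in F1 against 60.0 and 46.2 CPM in BL6, with 37.3 and 76.1 CPM in NOD. In all 6, F1 was higher than both NOD libraries. These groups were chosen because F1 was high there against BL6, which favours such an order. Nothing is read from it, and a difference between F1 and NOD was not tested. The F1 level beside Fcho1 came from contacts leaving the group, since no interaction inside it was listed in F1.

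The 10 groups with F1 lower had between 343 and 2328 CPM in BL6. On chromosome 8, the region from Eri1 past Mfhas1 to Prag1, 35475001 to 36200000, had 787 CPM in F1 against 1768 and 1479 CPM in BL6, with 1568 and 1334 CPM in the NOD libraries. The neighbouring region with Dusp4, a phosphatase of MAP kinases, and Tnks, from 34175001 to 34900000, had 1248 CPM in F1 against 2328 and 1877 CPM in BL6. There the NOD libraries had 1864 and 1021 CPM, the second of them under F1. Contacts inside the Eri1 to Prag1 region held 138 read pairs in F1 against 775 and 952 in BL6, or 180 CPM against 408 and 363 CPM. The bin of Eri1, from 35475001 to 35500000, had no listed interaction in F1 and 133 and 111 read pairs in BL6. The pair of a Mfhas1 bin, 35600001 to 35625000, with the bin from 35700001 to 35725000 was not listed in F1 and had 15 and 16 read pairs in BL6.

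Smaller lower groups included Rsad2, Cmpk2 and Rnf144a on chromosome 12, of which the first is an antiviral interferon-stimulated gene, with 495 CPM in F1 against 912 and 854 CPM in BL6. Ankrd50 and Fat4 on chromosome 3 lay in a group with 338 CPM in F1 against 746 and 694 CPM. The group from Itpr2, an inositol trisphosphate receptor gene, to Arntl2 on chromosome 6 had 207 CPM in F1 against 577 and 548 CPM, and contacts inside it held 8 read pairs in F1 against 226 and 305 in BL6. The remaining 5 lower groups, on chromosomes 7, 10, 14 and 17, lay between 209 and 742 CPM in F1 and between 343 and 1166 CPM in BL6. At that of chromosome 17, with 435 CPM in F1 against 667 and 727 CPM in BL6, NOD library 2 lay under F1 at 361 CPM. The bin of Bcl11b from 107950001 to 107975000 on chromosome 12 had no listed interaction in F1 and 188 and 116 read pairs in BL6. Over the gene body the log2 ratio of F1 over BL6 at Bcl11b was -0.66, without a call, beside the 199 CPM in F1 against 233 and 174 CPM in BL6 at the windows of its 2 ends.

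**Figure D4:**
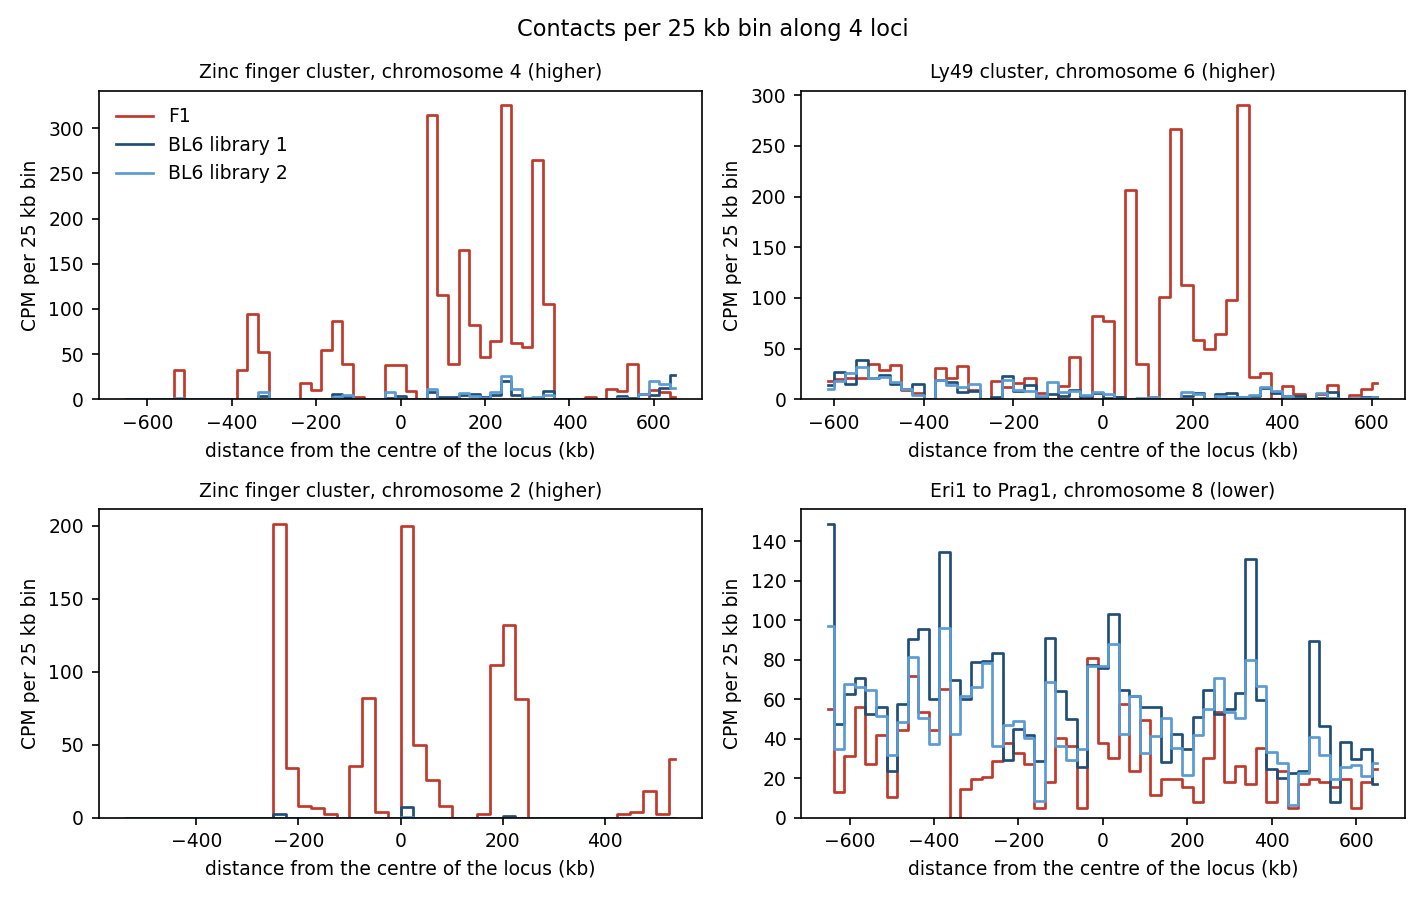
CPM per 25 kb bin along 3 groups with F1 higher and 1 group with F1 lower, against distance in kb from the centre of the group, with F1 in red and BL6 libraries 1 and 2 in dark and light blue. In the zinc finger and Ly49 clusters F1 peaks stand over nearly flat BL6 lines, with sums of 2087, 1617 and 978 CPM in F1; in the Eri1 to Prag1 region F1 runs mostly below both BL6 lines, and the bin of Eri1, the first of the group, has no listed interaction in F1.

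Single contacts were compared as pairs of 25 kb bins. The F1 library listed 282042 bin pairs, of which 20.1% were also listed in BL6 library 1, 26.0% in BL6 library 2 and 37.2% in either. Of the bin pairs of BL6 library 1, 9.29% were listed in F1 and 23.7% in BL6 library 2, and of those of BL6 library 2, 9.03% were listed in F1 and 17.8% in BL6 library 1. The shares rose with the number of read pairs behind a bin pair. Among F1 pairs with 2 read pairs 16.6% were also in BL6 library 1 and 21.8% in BL6 library 2, and among those with 20 to 49 read pairs 82.9% and 80.8% were. In the top band, of at least 50 read pairs, 75.0% and 68.8% of only 16 F1 pairs were listed in BL6 libraries 1 and 2, while 98.3% of 237 such pairs of BL6 library 1 were listed in BL6 library 2 and 90.3% in F1.

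**Figure D5:**
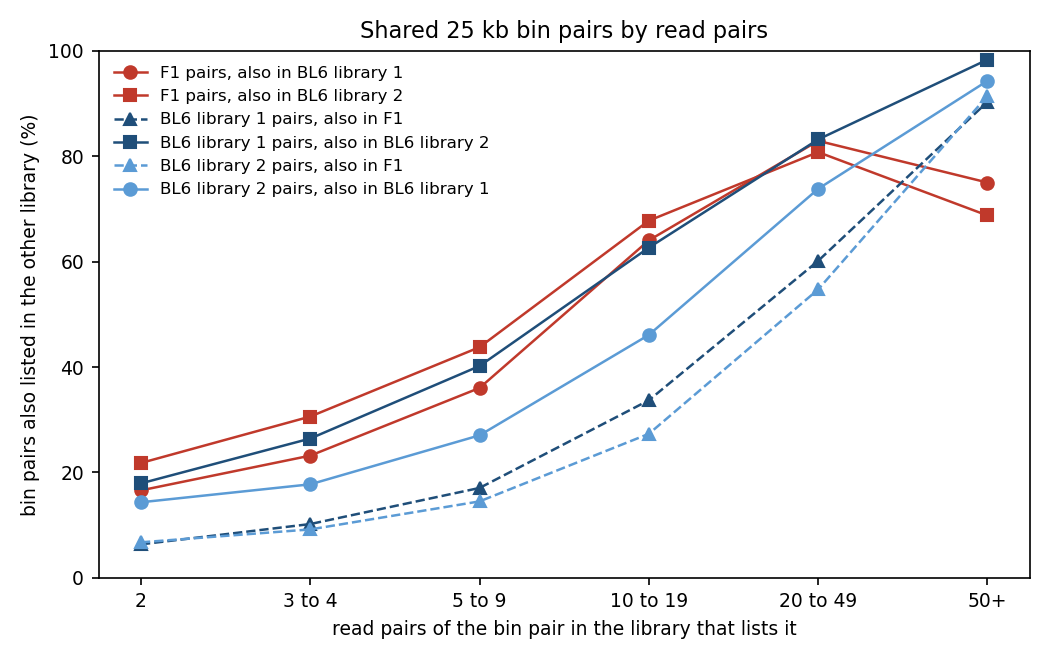
Percent of the 25 kb bin pairs of a library that were also listed in another, by the number of read pairs in the library that lists them (bands from 2 to at least 50), with F1 pairs in red, BL6 library 1 pairs in dark blue and BL6 library 2 pairs in light blue, and dashed lines for shares found in F1. All lines climb from under 25% at 2 read pairs, and only the F1 lines turn down in the top band, to 75.0% and 68.8% of 16 pairs.

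Of 2282 bin pairs with at least 10 read pairs in F1, 503 (22.0%) were listed in neither BL6 library although these were deeper. The BL6 libraries also missed pairs of each other at such counts, which are lower levels in these deeper libraries than in F1. Among pairs of 10 to 19 read pairs, 64.0% of those of F1 were in BL6 library 1 and 67.8% in BL6 library 2. In that band 62.6% of the pairs of BL6 library 1 were in library 2, and 46.1% of those of library 2 were in library 1. Equal counts are unlike levels, since 1 read pair is 1.31 CPM in F1 and 0.526 and 0.382 CPM in BL6. Among pairs of 20 to 49 read pairs, 83.2% of those of BL6 library 1 were in library 2. The share of library 2 pairs in library 1 was 73.8% there. The 503 pairs were short: their median distance was 25 kb, against 125 kb for all 2282, and 17.7% lay within 1 bin, against 4.65%. For 460 of the 503, the same F1 library also listed the pair on the NOD genome. The large groups of called bins held 39 of the 503. Of the 38 pairs with at least 20 read pairs in F1, 17 lay inside those groups.

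The strongest such pair joined the bin of Klra7 to that of Klra1, 150 kb apart, with 77 read pairs in F1, none listed in BL6 and 71 and 202 in the NOD libraries. In the same cluster, pairs of Klra8 with Klra1 and of Klra7 with Klra3 had 41 and 36 F1 read pairs, with none listed in BL6. A pair of Zfp990 with the bin of Zfp988 on chromosome 4 had 52 read pairs in F1, and a pair of bins starting at 177050001 and 177300001 on chromosome 2 had 48. The bin of Tmem267 and the chemokine gene Ccl28 on chromosome 13 had 60 F1 read pairs within itself, with none listed in BL6 and 17 and 41 in NOD. Each of these 6 pairs was also listed in both NOD libraries, with between 11 and 202 read pairs.

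A pair on chromosome 8 and another on chromosome 7 were listed in F1 and were weak or not listed elsewhere. The bins from 71125001 to 71150000 and from 71800001 to 71825000 on chromosome 8, the second of them inside the group beside Fcho1, shared 58 read pairs in F1, with none listed in BL6 and 2 and 3 in the NOD libraries. The bin of Gtf3c1 on chromosome 7, which encodes a subunit of the transcription factor TFIIIC, had 39 F1 read pairs within itself from 125650001 to 125675000, with none listed in the BL6 or NOD libraries. On the NOD genome the same F1 library had 57 and 39 read pairs at these 2 pairs.

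In the other direction, 59 bin pairs had at least 50 read pairs in both BL6 libraries, and 2 of them (3.39%) were not listed in F1. One joined bins 26425001 to 26450000, with Sec16a, and 26550001 to 26575000 on chromosome 2, with 64 and 53 read pairs in BL6. The other joined the bin of the mitochondrial ribosomal protein genes Mrpl46 and Mrps11 to that of Aen, a nuclease gene of the p53 response, on chromosome 7, with 63 and 50 read pairs in BL6. The NOD libraries listed both pairs, with 42 and 42 and with 53 and 46 read pairs. At the depth ratios of 2.48 and 3.42, nearly all pairs this strong in both BL6 libraries were thus listed in F1, from 2 read pairs upward. Of pairs with at least 50 read pairs in BL6 library 1, 90.3% were listed in F1, and of those in library 2, 91.4%. Among pairs with 20 to 49 read pairs the shares were 60.1% and 54.7%.

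The counts of calls rest on the requirement that F1 differ from both BL6 libraries. Against BL6 library 2 alone, 921 genes were higher and 534 lower in F1, and against BL6 library 1 alone 786 were higher and 859 lower. With the listing minimum raised in the BL6 libraries in proportion to depth, 740 genes were higher and 1518 lower, of which 147 and 169 were among those called with all listed interactions. In that setting 56.5% of genes were 2-fold apart between F1 and BL6 library 1 and 74.0% between F1 and BL6 library 2, and 67.4% between the BL6 libraries themselves.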

How the data were processed

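Smc1 HiChIP was measured in 1 F1 and 2 BL6 libraries. The authors deposited counts of read pairs per listed interaction and of reads per anchor, not normalized, and a p-value and q-value for each, per the file headers. HiC-Pro, Juicer 1.7.6, MACS and the build GRCm38 appear in the submitters' processing notes without a stated role, and the filters behind the listing are not given in the sources used here. A missing interaction counted as 0 in sums. The F1 table used is the one without a shift from the NOD genome in its name. Protein-coding genes came from RefSeq GRCm38.p6. Neighbouring genes share interactions, and strand was not used. CPM, pseudocount, call rule and intervals are as given in the report, and intervals cover counting error only, since read pairs carry no molecular identifiers.

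With 1 F1 library no test was made on the F1 side. The BL6 libraries are technical replicates, so their spread may be smaller than that between animals. The members and the 16 gene lists were chosen with earlier results of these data known. Named genes were up to 12 called genes each way by the gap to the nearer BL6 library, with at least 50 CPM in F1 or in both BL6 libraries and 1 gene per 100 kb, clone-type names left out. Called list members, the 10 genes with the highest F1 level and the double-positive markers were added, as were 6 bins and up to 6 bin pairs each way. Clic6, Ms4a10 and Qprt completed the 10 highest, with 250, 188 and 187 CPM in F1, against 173, 115 and 139 CPM in BL6 library 1 and 119, 56.5 and 126 CPM in BL6 library 2, and were not called. Alternatives covered pseudocount, minimum level, read pair minimum, TMM scaling, windows, distance, fold, bin size and each BL6 library left out. H3K27ac tables of NOD were not used here. Python 3.11.15, pandas 2.3.3, and edgeR 4.0.16 (for TMM factors only) in R 4.3.3 were used, and the call rule was tested on simulated data. Some list members and markers are not reported here.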

Additional observations from a re-analysis of the deposited data

Results flagged for a closer look

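Interactions with midpoints under 10 kb apart were left out of the comparisons, and in that range F1 listed signal where neither BL6 library listed any. Of 794 bins with at least 20 such F1 read pairs, 378 had none listed in BL6. These bins were chosen for their F1 level, and no such share was taken between the BL6 libraries. Nothing is read from the count. The 6 highest bins more than 100 kb apart had 97 F1 read pairs at Tmem267 on chromosome 13, 86 at a bin from 146050001 to 146075000 on chromosome 4, 47 at Zbtb16 on chromosome 9, 45 at Osbpl3 on chromosome 6, 43 at Srl on chromosome 16 and 42 at 52675001 to 52700000 on chromosome 11. On the NOD genome the same F1 library had 103 read pairs at the Tmem267 bin, 56 at the chromosome 4 bin and none listed at the Zbtb16 bin. NOD library 1 had 81 read pairs at the Tmem267 bin, 23 at the Srl bin and 12 at the chromosome 11 bin. NOD library 2 had 11 at the Srl bin. Neither NOD library listed any at the chromosome 4, Zbtb16 and Osbpl3 bins. Such short contacts include neighbouring restriction fragments, and the part of these in the signal was not tested.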

How the results depend on the processing

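No paired analysis was possible because the F1 and BL6 groups share only 1 replicate number. The lists of genes and bins depended on depth and on the listing limit, and the cause of each change below was not tested unless the setting itself fixes it. Counts of genes higher and lower in F1 (335 and 315) became 204 and 185 with a pseudocount of 10 CPM, and 858 and 722 with interactions of at least 3 read pairs. They became 740 and 1518 with the BL6 minimum raised in proportion to depth (to 5 and 7 read pairs), 1238 and 820 at 1.5-fold, and 44 and 63 at 3-fold. With no minimum CPM they were 653 and 1563, and with at least 10 CPM the lower count was 903. Settings added after the data were seen gave 211 and 74 with start-site windows and 69 and 9 at a mean of at least 50 CPM. Leaving out 1 BL6 library gave 786 to 921 higher and 534 to 859 lower genes. Other settings stayed within 1.5 times of both counts, though the genes could change. Gene body windows gave 249 higher and 367 lower genes, of which 191 and 148 were among the 335 and 315.

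Counts of bins (1101 higher, 1074 lower) became 476 higher with 50 kb bins, 1657 higher with a pseudocount of 1 CPM, 2964 and 2513 with at least 3 read pairs, 4385 and 3255 with the raised BL6 minimum, and 2734 to 3212 higher and 2345 to 2491 lower without 1 BL6 library. F1 bin pairs listed in neither BL6 library (503) were 38 at 20 or more read pairs and 705 to 775 without 1 BL6 library. BL6 bin pairs not listed in F1 (2) were 9 to 23 without 1 BL6 library. Genes 2-fold apart made up 31.2%, 30.3% and 19.9% for F1 with BL6 library 1, F1 with BL6 library 2 and BL6 library 1 with library 2 at 3 or more read pairs, and 56.5%, 74.0% and 67.4% at the raised minimum.

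Of 42 called genes named, 416 of 420 ratios over 10 settings kept their sign. The 4 exceptions were Id2 (1.17 at the raised minimum), Dnah17 (0.0487 with gene bodies), and Tmem267 (-0.44) and Ern1 (0.33) with start-site windows. Only 7 stayed called under all 10, namely Klra9, Klra4, Klra7, Ifi202b, Aadacl2fm2, Ddx28 and Emp1. Strain-polymorphic members higher in F1 (9) numbered between 4 and 19.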
